A study of Mus musculus with 18 samples.

Results

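The 39 mouse genes described here encode the enzymes that build purine and pyrimidine nucleotides, turn them into the deoxynucleotides of DNA, and supply the folate-bound one-carbon units and the serine that this synthesis uses. They were chosen by name and function, with earlier results of these data known, as the rows of the deposited count tables that carry their symbols. All 39 were found among the 24072 genes of the spleen table and among the 10702 genes of the table of both burst-forming erythroid progenitor (BFU-E) populations, and all 39 passed the filter on low counts in every comparison. RNA was sequenced from 4 sorted populations of strain B6SJL, with 3 libraries each. One was the BFU-E of steady-state bone marrow (BM), from animals for which the labels give no treatment. The other three came from the spleen on day 8 after unfractionated bone marrow cells had been given to lethally irradiated hosts, and were BFU-E, the multipotent progenitors (MPP) upstream of them and the colony-forming units downstream (CFU-E). Lineage-positive cells were removed and the rest sorted on surface antigens, with Sca1-negative BFU-E, Sca1-positive MPP and CD9-negative CFU-E. Open chromatin was profiled by ATAC-seq in both BFU-E populations, also with 3 libraries each. The labels give no age, radiation dose or donor genotype, and do not say whether the libraries of a group came from separate animals, so p-values measure only the spread between these libraries.

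Purine synthesis builds inosine monophosphate (IMP) stepwise on activated ribose phosphate, and branches from it to AMP and GMP. Pyrimidine synthesis builds the ring first and then attaches the ribose phosphate to give UMP, from which CTP and, after reduction by ribonucleotide reductase, dTTP are made. Serine feeds one-carbon units into the folate cycle, which delivers them to the purine ring and to thymidylate. Erythroid progenitors divide fast, and folate deficiency or drugs against these enzymes cause megaloblastic anaemia.

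The libraries held 5937778 to 13197159 counts, of which the ribosomal RNA precursor Rn45s took 8.01% to 22.6%. The BM libraries resembled each other less (Pearson's r 0.669 to 0.789 of log2 levels over genes) than the libraries within each spleen group (0.929 to 0.966), and 1.53% to 15.3% of the genes of the BFU-E table were at 0 in a BM library against 0.42% to 0.74% in a spleen BFU-E library. BM library 3 had the largest share at 0. The labelled populations were checked against marker genes. The summed level of the erythroid markers was 2619 to 2642 CPM in CFU-E against 640.1 to 719.8 in MPP and 652.8 to 714.8 in spleen BFU-E, and that of the stem and multipotent progenitor markers was 722.9 to 832.8 in MPP, 429.5 to 465 in BFU-E and 141 to 183 in CFU-E. CPM are counts normalised to the size and composition of each library. The marker lists of megakaryocytes and myeloid cells were not at 0 in the BFU-E: in the spleen table they summed to 1780 to 2053 and 709.2 to 847.5 CPM in BFU-E, and to 78.3 to 90.2 and 32.2 to 70.8 CPM in CFU-E.

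A larger share of the RNA counts fell in these genes in spleen CFU-E than in the other populations. The 39 genes together took 0.769%, 0.728% and 0.658% of the counts without Rn45s in the CFU-E libraries, 0.585%, 0.574% and 0.542% in spleen BFU-E, and 0.505%, 0.543% and 0.527% in MPP. In the filtered BFU-E table they took 0.588%, 0.577% and 0.545% in spleen BFU-E and 0.419%, 0.409% and 0.376% in BM BFU-E. CFU-E lay above BFU-E and MPP, the ranges of BFU-E and MPP met, and BM lay below spleen BFU-E. These shares are given without a test. With Rn45s in the total, the shares were 0.574% to 0.689% in CFU-E, 0.485% to 0.521% in spleen BFU-E and 0.408% to 0.453% in MPP. The ranges of BFU-E and MPP then did not meet. In the filtered BFU-E table they were 0.346% to 0.375% in BM BFU-E and 0.487% to 0.523% in spleen BFU-E. In bulk RNA of sorted cells, fewer cells of a type and less RNA per cell cannot be told apart.

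**Figure D1:**
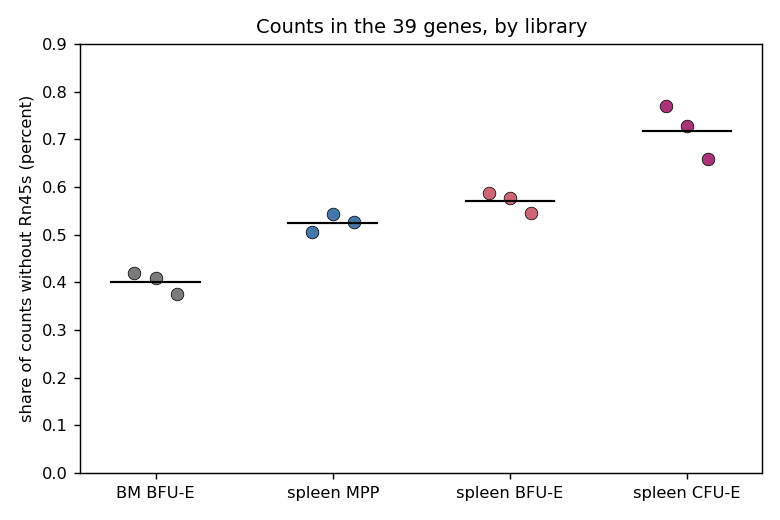
Share of each library's counts (percent, Rn45s left out) that fell in the 39 genes, with 1 point per library and a bar at the mean of 3; both BFU-E populations are from the BFU-E table, MPP and CFU-E from the spleen table. BM BFU-E lie lowest (0.376% to 0.419%) and spleen CFU-E highest (0.658% to 0.769%).

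Differences were tested with edgeR's quasi-likelihood test, with p-values adjusted by the Benjamini-Hochberg method over all genes tested, and a gene is said to have risen or fallen where the adjusted p is under 0.05. Between CFU-E and BFU-E of the stress spleen, 11 of the 39 genes rose and none fell. Of the 10166 genes tested, 21.1% were called, 9.17% higher and 11.9% lower. The median log2 fold change of the 39 genes was 0.22, and that of all genes tested was -0.00. It was above 0 for 32 of the 39 (49.8% of all genes). For 15 every CFU-E library was higher than every BFU-E library (18.2% of all genes), and for none was every one lower (19.3%, and 37.5% without overlap in either direction). Between CFU-E and MPP, which shares the CFU-E libraries, 17 rose and none fell. Of all genes, 28.8% were called, 12.7% higher and 16% lower, and the medians were 0.34 for the 39 genes and -0.00 for all. The log2 fold change was above 0 for 34 of the 39 (50% of all genes). The groups did not overlap for 21 (40.4% of all genes), with CFU-E higher for 20 (19.1%) and lower for 1, Ctps2 (21.2%). Between spleen BFU-E and MPP, edgeR called 0 of the 39 genes, while 4.13% of all genes were called, 2.03% higher and 2.11% lower. There 6 of the 39 had an unadjusted p under 0.05, all higher in BFU-E (7.59% of all genes were). DESeq2 called 1 of the 39, and the alternatives run called 225 to 668 genes over the whole table. Between stress spleen BFU-E and BM BFU-E, edgeR again called 0 of the 39, with 0.112% of the 10702 genes called, 0.00934% higher and 0.103% lower. In that comparison 9 of the 39 had an unadjusted p under 0.05, all higher in the spleen (3.83% of all genes were). DESeq2 called 6 of the 39, and 685 of the 10702 genes.

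**Figure D2:**
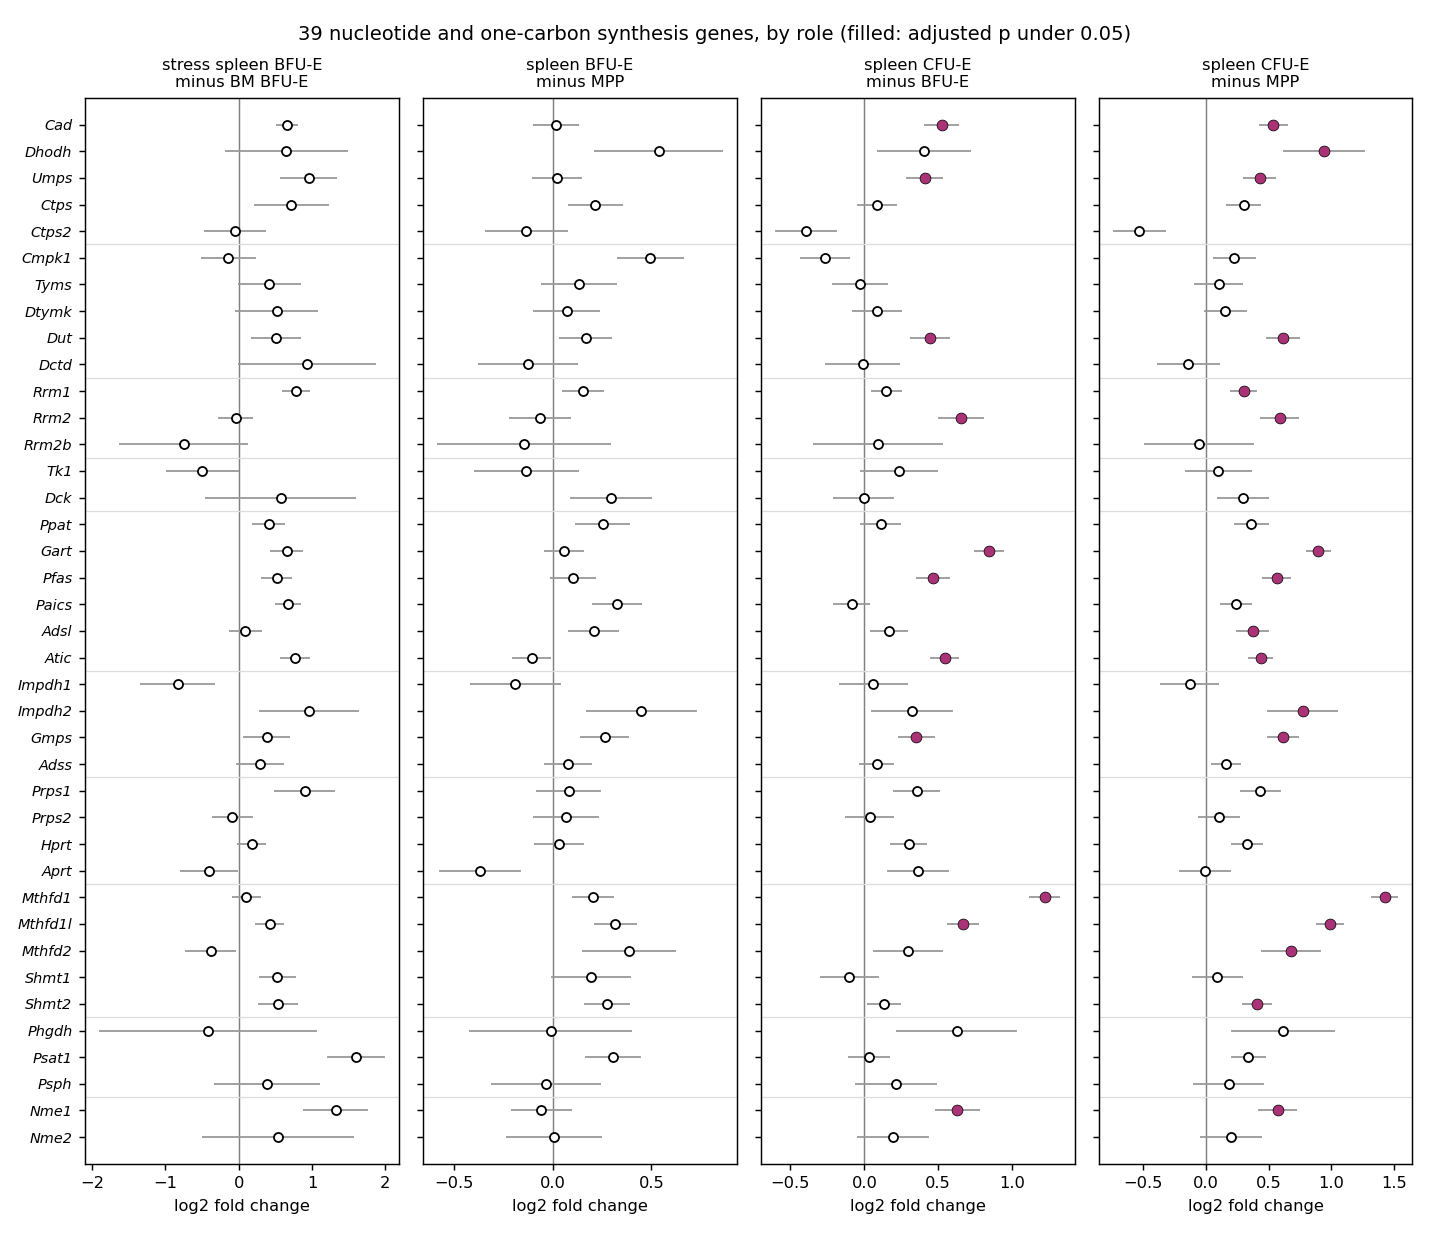
Log2 fold change of each of the 39 genes in the 4 comparisons (point, with the approximate standard error as a bar; filled where edgeR's adjusted p is under 0.05), ordered by pathway step. No gene is filled in the panels of the BFU-E populations and of BFU-E against MPP, 11 are in CFU-E against BFU-E and 17 in CFU-E against MPP, all to the right of 0.

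The start sites of nearly all 39 genes lay in open chromatin in both BFU-E populations, as did those of most genes of the BFU-E table. The authors deposited 1 merged peak list per population, with 35142 intervals in BM and 61661 in stress spleen, so peaks have no replicate check here. A count added after seeing the data took a peak of any gene name within 1 kb of the counted transcript's start. By it, 36 of the 39 genes had such a peak in BM, 38 in spleen and 36 in both. Over all 10702 genes of the BFU-E table, 89.8% had such a peak in BM, 93.9% in spleen, 89.6% in both and 4.28% in the spleen list only (0.243% in the BM list only). Umps, which makes UMP from the pyrimidine ring, and Pfas, an enzyme of the purine ring, were the genes with a start peak in the spleen list only, at chr16:33966163-33967551 and chr11:69008176-69008717 (mm10), each with the top score of 1000. Tk1, the salvage kinase of thymidine, had no peak within 1 kb in either list, and its nearest lay in introns of Afmid over 3 kb away. By the gene name that the authors' annotation gives each peak, 13 of the 39 had a peak of the promoter class in BM and 17 in spleen, with Adsl, Aprt, Gart and Pfas in the spleen list alone. Part of that difference is in the annotation. The BM peaks at the starts of Adsl and Aprt carry their names but are classed as exon. They lie 147 and 296 bases from the start by the authors' distance. A BM peak does lie at the start of Gart, but it carries the name of Son, the neighbouring gene that starts beside it. Only Pfas of these genes had no BM peak within 1 kb of its start. The peak at the start of Ppat carries the name of Paics, and Ppat has no promoter-class peak in either list.

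A few promoters are shown, chosen by the RNA values and peaks of these data, and a peak of the spleen list covers each of them. BM peaks also cover those of Mthfd1, Atic and Psat1, and a BM peak named for Son lies at the start of Gart. Mthfd1, Gart and Atic rose in CFU-E, Psat1 had the largest difference between the BFU-E populations, and Umps had a start peak in the spleen list alone. Each run is the 250 bases before the RefSeq start site (GRCm38.p6), written 5′ to 3′ on the gene's strand, with capitals for matches on either strand to 3 motifs. These are the E-box CACGTG, the CCAAT box, and AGATAA, which GATA factors bind.
Umps, chr16:33967039-33967288, minus strand: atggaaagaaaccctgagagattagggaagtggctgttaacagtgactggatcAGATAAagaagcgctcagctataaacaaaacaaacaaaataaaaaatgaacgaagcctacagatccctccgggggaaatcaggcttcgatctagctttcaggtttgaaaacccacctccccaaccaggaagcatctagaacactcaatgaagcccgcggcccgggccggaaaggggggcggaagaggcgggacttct
Mthfd1, chr12:76254982-76255231, plus strand: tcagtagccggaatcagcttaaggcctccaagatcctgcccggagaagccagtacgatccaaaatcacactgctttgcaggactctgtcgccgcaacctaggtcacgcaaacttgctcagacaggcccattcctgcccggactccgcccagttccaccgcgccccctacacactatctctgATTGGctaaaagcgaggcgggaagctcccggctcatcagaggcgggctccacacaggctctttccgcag
Gart, chr16:91646973-91647222, minus strand: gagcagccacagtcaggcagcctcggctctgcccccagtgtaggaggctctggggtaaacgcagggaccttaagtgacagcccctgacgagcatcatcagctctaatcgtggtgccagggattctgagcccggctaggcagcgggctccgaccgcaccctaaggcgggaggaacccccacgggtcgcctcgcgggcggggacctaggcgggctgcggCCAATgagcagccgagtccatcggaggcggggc
Atic, chr1:71556906-71557155, plus strand: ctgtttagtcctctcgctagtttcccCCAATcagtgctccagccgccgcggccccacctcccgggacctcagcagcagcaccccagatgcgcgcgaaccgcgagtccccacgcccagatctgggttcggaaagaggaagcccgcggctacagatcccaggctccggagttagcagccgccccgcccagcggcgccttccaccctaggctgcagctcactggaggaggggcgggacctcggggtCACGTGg
Psat1, chr19:15925060-15925309, minus strand: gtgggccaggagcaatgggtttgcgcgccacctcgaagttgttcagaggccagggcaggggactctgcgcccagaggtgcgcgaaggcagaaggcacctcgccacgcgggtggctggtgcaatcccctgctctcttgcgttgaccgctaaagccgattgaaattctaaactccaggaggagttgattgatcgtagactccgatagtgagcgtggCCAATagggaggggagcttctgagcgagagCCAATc
The E-box of Atic begins 7 bases before its start site, and a CCAAT match lies 224 bases before it. Mthfd1 holds its CCAAT match on the opposite strand, as ATTGG, 69 bases before the start. Gart has one 33 bases before the start, and Psat1 has a pair, 36 and 6 bases before it. The GATA match of Umps lies 197 bases before a RefSeq start that is 35 bases upstream of the counted transcript. Of the 36 genes with a window in the RefSeq table, 6 (16.7%) hold CACGTG, namely Tyms, Dtymk, Paics, Atic, Impdh2 and Nme1, against 10.2% of 8213 genes of the BFU-E table with a window and 6.86% of all 27025 genes. CCAAT was present in 15 (41.7%, against 40.7% and 37.5%) and AGATAA in 5 (13.9%, against 7.0% and 11.4%). The GC box GGGCGG was in 28 (77.8%, against 64.9% and 35.4%), and the E2F motif TTTCCCGC in 1, Ppat (2.78%, against 2.19% and 1.03%). These are matches of letters only, and no test was made of them.

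In all, 75 peaks in BM and 122 in spleen were named for the 39 genes, 0.213% and 0.198% of the lists. Of the 75 BM peaks, 74 overlapped a peak of the spleen list (98.7%, against 95.5% of all BM peaks). Of the 122 spleen peaks, 74 overlapped a BM peak (60.7%, against 55.0% of all). All 33 BM peaks within 1 kb of a start and 35 of 38 such spleen peaks were shared, whereas 39 of 84 spleen peaks farther away were. This split by distance was not made for all peaks, so it cannot be called particular to these genes. More peaks in spleen than in BM were named for 26 of the 39 genes (66.7%), an equal number for 13, and fewer for none, and over all 18139 gene names 65.6% had more peaks in spleen. Umps had the most, 12 in BM and 24 in spleen, nearly all in introns of its neighbours Itgb5 and Kalrn. The authors' top score of 1000 was held by 29 of the 75 BM peaks and 72 of the 122 spleen peaks, against 30.4% and 49.2% of all peaks in the lists.

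**Figure D3:**
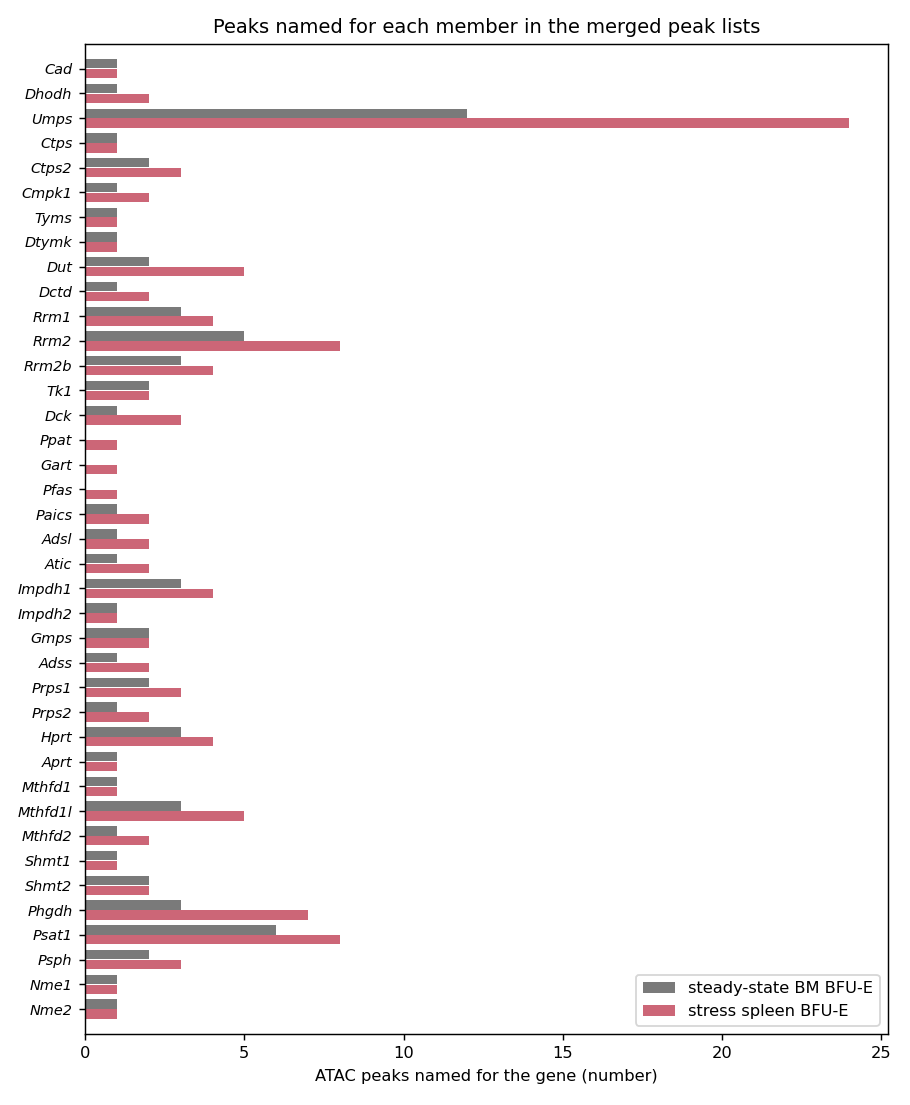
Number of ATAC peaks that the authors' annotation named for each of the 39 genes in the merged list of BM BFU-E (grey) and of stress spleen BFU-E (red). No gene has fewer peaks in the spleen list, which is also the longer one, and Umps stands out with 12 and 24.

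Of the 5 folate one-carbon enzymes, 2 rose in CFU-E over BFU-E, with a median log2 fold change of 0.30, and 4 rose over MPP, with a median of 0.68. Mthfd1 encodes the cytosolic enzyme with 3 activities that interconverts folate-bound one-carbon units, including the formyl donor of purine synthesis. Its level was 566, 527 and 462 CPM in CFU-E, 241, 211 and 215 in spleen BFU-E and 201, 176 and 202 in MPP. The CFU-E libraries thus lay above all others, and Mthfd1 rose by 1.22 ± 0.11 on the log2 scale (± approximate standard error) over BFU-E (adjusted p = 2.47e-08) and by 1.42 ± 0.11 over MPP (adjusted p = 2.4e-09). Per gene length it was the most abundant of the 39 genes in CFU-E, at 85.3 ± 14.8 RPKM (the authors' read values per length of transcript and depth of library, mean ± SD, n = 3), against 36.9 ± 4.07 in BFU-E. Mthfd1l, which releases formate from mitochondria, was at 276, 249.8 and 249.9 CPM in CFU-E, 172, 161 and 155 in BFU-E and 132, 134 and 125 in MPP, and the 3 groups did not overlap. It rose by 0.67 ± 0.11 (log2) from BFU-E to CFU-E (adjusted p = 9.4e-05) and was higher by 0.99 ± 0.11 in CFU-E than in MPP (adjusted p = 6.55e-07). Its difference between BFU-E and MPP, 0.32 ± 0.11, missed the threshold (adjusted p = 0.122). Mthfd2, a mitochondrial dehydrogenase and cyclohydrolase of the same pathway, was at 68.0, 62.9 and 33.0 CPM in CFU-E, 46.6, 40.9 and 46.1 in BFU-E and 32.3, 30.1 and 40.0 in MPP. CFU-E library 3 lay within the MPP range, and the rise over MPP of 0.68 ± 0.24 (adjusted p = 0.0375) did not pass without CFU-E library 1 or 2 or MPP library 1 or 2, with 0.49 (adjusted p = 0.198) without CFU-E library 1.

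The serine hydroxymethyltransferases take the one-carbon unit from serine. Shmt2, the mitochondrial form, was at 267, 258 and 217 CPM in CFU-E, 259, 213 and 205 in BFU-E and 188, 179 and 192 in MPP, and rose over MPP by 0.41 ± 0.12 (log2, adjusted p = 0.0122). Shmt1, the cytosolic form, was at 95.6, 65.3 and 53.5 CPM in CFU-E, 81.0, 72.9 and 76.2 in BFU-E and 57.4, 84.5 and 60.1 in MPP, and its groups overlapped. Per length, Shmt2 was the more abundant of the pair in the 3 spleen populations, at 58.8 ± 10.4 RPKM in CFU-E against 19.1 ± 7.09 for Shmt1. Without CFU-E library 1, the rise of Shmt2 was 0.35 (adjusted p = 0.0639).

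Of the 6 enzymes from activated ribose phosphate to IMP, 3 rose between BFU-E and CFU-E. Gart, which catalyses several steps of the ring including its first formyl transfer, was at 478, 411 and 407 CPM in CFU-E, 247, 248 and 229 in BFU-E and 243, 215 and 238 in MPP, with the BFU-E and MPP libraries interleaved. It rose by 0.84 ± 0.10 (log2) over BFU-E (adjusted p = 2.75e-06) and by 0.90 ± 0.10 over MPP (adjusted p = 9.77e-07). Atic, which catalyses the last steps to IMP including the other formyl transfer, was at 368, 341 and 333 CPM in CFU-E, 249, 219.6 and 245 in BFU-E and 252, 261 and 257 in MPP. The MPP libraries lay slightly above all BFU-E libraries, and CFU-E above both, by 0.55 ± 0.10 over BFU-E (log2, adjusted p = 0.000323) and 0.44 ± 0.10 over MPP (adjusted p = 0.00197). Pfas, which adds an amide nitrogen to the growing ring, was at 358, 372 and 275 CPM in CFU-E, 242, 231 and 257 in BFU-E and 224, 238 and 218 in MPP, and rose by 0.46 ± 0.11 (adjusted p = 0.0055) and 0.57 ± 0.12 (adjusted p = 0.000802) over them. CFU-E library 3 was the lowest CFU-E library for all of these genes, and it stayed above every BFU-E and MPP library.

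The other enzymes of the ring moved less. Ppat, which commits ribose phosphate to purine synthesis, was at 162 to 216 CPM in CFU-E, 161 to 188 in BFU-E and 120.0 to 167 in MPP. Paics, which catalyses middle steps, was at 203 to 213, 197 to 248 and 145 to 202 CPM in the same order. Neither passed the test in CFU-E against BFU-E. Against MPP, the log2 fold change of Ppat was 0.36 ± 0.14 (adjusted p = 0.055), and Ppat passed in 5 of 12 alternatives. These were no filter on low counts (0.39, adjusted p = 0.0145), library totals (0.44, adjusted p = 0.023), DESeq2 (0.37, adjusted p = 0.0417), and leaving out CFU-E library 2 (0.47, adjusted p = 0.0237) or MPP library 2 (0.46, adjusted p = 0.027). The counted transcripts of Ppat and Paics start head to head on opposite strands and overlap over 168 bases, where reads cannot be assigned to one of them unless strand was used in counting, which is not stated. Adsl, which acts both in the ring and on the way to AMP, was at 203, 211 and 165 CPM in CFU-E, 153, 191 and 172 in BFU-E and 169, 133 and 144 in MPP. Its groups overlapped, and its rise over MPP of 0.37 ± 0.13 (log2, adjusted p = 0.0375) did not pass without CFU-E library 1 or 2 or MPP library 2 or 3, with 0.30 (adjusted p = 0.144) without CFU-E library 2.

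From IMP, Gmps makes GMP and Impdh1 and Impdh2 make its precursor. Gmps was at 207, 234 and 176 CPM in CFU-E, 143, 177 and 163 in BFU-E and 131, 135 and 136 in MPP. CFU-E and MPP did not overlap, and the rise was 0.62 ± 0.13 (log2, adjusted p = 0.000847). CFU-E library 3 lay just under BFU-E library 2, and that rise of 0.35 ± 0.12 passed the test narrowly (adjusted p = 0.0499). It did not pass without CFU-E library 1 or 2 or BFU-E library 1 or 3, with 0.25 (adjusted p = 0.245) without CFU-E library 2. Impdh2 was at 30.7, 34.9 and 32.4 CPM in CFU-E, 24.0, 23.7 and 30.5 in BFU-E and 14.0, 15.9 and 27.6 in MPP. It rose over MPP by 0.77 ± 0.28 (log2, adjusted p = 0.0454), a call that was lost when any 1 library other than MPP library 3 was left out, with 0.58 (adjusted p = 0.168) without MPP library 1. Impdh1 was at 60.6, 72.1 and 33.3 CPM in CFU-E, 62.1, 53.6 and 43.6 in BFU-E and 53.2, 65.5 and 63.5 in MPP, and its groups overlapped. Per length the pair lay close in CFU-E, at 12.5 ± 5.01 RPKM for Impdh1 and 10.9 ± 0.930 for Impdh2. Adss, which opens the branch to AMP, was at 144 to 166 CPM in CFU-E, 134 to 157 in BFU-E and 131 to 145 in MPP.

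Among the pyrimidine genes, Cad and Umps rose. Cad encodes the protein that carries the first 3 enzyme activities of the ring, and was at 724, 712 and 532 CPM in CFU-E, 497, 447 and 426 in BFU-E and 418, 524 and 415 in MPP. All CFU-E libraries lay above the others, CFU-E library 3 only just. The rise was 0.52 ± 0.12 over BFU-E (log2, adjusted p = 0.00234) and 0.54 ± 0.12 over MPP (adjusted p = 0.00146). Umps was at 177, 157 and 138 CPM in CFU-E, 119, 116 and 122 in BFU-E and 108, 116 and 127 in MPP, and rose by 0.41 ± 0.13 (adjusted p = 0.0271) and 0.43 ± 0.13 (adjusted p = 0.0162). The former did not pass when any 1 library other than CFU-E library 3 was left out, and the latter without CFU-E library 1 or MPP library 1. Without CFU-E library 1, they were 0.31 (adjusted p = 0.15) and 0.33 (adjusted p = 0.101). Dhodh, the mitochondrial dehydrogenase between them, was at 33.9, 35.2 and 32.5 CPM in CFU-E, 27.9, 28.8 and 20.1 in BFU-E and 9.93, 14.2 and 29.0 in MPP, and rose over MPP by 0.94 ± 0.33 (log2, adjusted p = 0.035). It did not pass when any 1 library other than MPP library 3, the highest of its group, was left out, with 0.64 (adjusted p = 0.15) without MPP library 1.

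Neither of the synthases that make CTP from UTP passed the test. Ctps was at 123, 113 and 94.6 CPM in CFU-E, 107, 101 and 104 in BFU-E and 89.2, 87.6 and 92.0 in MPP. Ctps2 was at 37.1, 32.4 and 59.6 CPM in CFU-E, 51.0, 64.1 and 54.3 in BFU-E and 62.1, 62.4 and 61.5 in MPP, so that all CFU-E libraries lay below all MPP libraries. Its log2 fold change in CFU-E against MPP was -0.53 ± 0.21 (adjusted p = 0.0687). Without CFU-E library 3, Ctps2 passed the test as lower, at -0.83 against MPP (adjusted p = 0.00545) and -0.70 against BFU-E (adjusted p = 0.0218), and was then the only one of the 39 called lower in either comparison. Per length, Ctps exceeded Ctps2 in the 3 spleen populations, with 22.4 ± 4.54 and 4.17 ± 1.13 RPKM in CFU-E.

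On the way to deoxynucleotides, Rrm2 and Dut rose. Rrm2 encodes the small subunit of ribonucleotide reductase that cycling cells make in S phase, and was at 139, 127 and 116 CPM in CFU-E, 87.2, 69.1 and 86.4 in BFU-E and 75.3, 101 and 78.5 in MPP. CFU-E lay above both, by 0.65 ± 0.15 over BFU-E (log2, adjusted p = 0.00381) and 0.59 ± 0.16 over MPP (adjusted p = 0.00672). Rrm2b, the small subunit known as a p53 target, was at 7.21, 12.8 and 15.4 CPM in CFU-E, 10.5, 12.6 and 9.99 in BFU-E and 12.7, 7.43 and 16.4 in MPP, with wide overlap. Per length Rrm2b was the least abundant of the 39 genes in the 3 spleen populations, at 1.39 ± 0.411 RPKM in CFU-E against 31.9 ± 5.27 for Rrm2. Rrm1, the large subunit, was at 502, 579 and 454 CPM in CFU-E, 429, 507 and 449 in BFU-E and 423, 454 and 370.0 in MPP. It rose over MPP by 0.30 ± 0.11 (log2, adjusted p = 0.0388), and did not pass without CFU-E library 1 or 2 or MPP library 1 or 3, with 0.20 (adjusted p = 0.22) without CFU-E library 2. Dut, which removes dUTP and makes the dUMP used for thymidylate, was at 343, 288 and 299.8 CPM in CFU-E, 277, 219 and 188 in BFU-E and 207, 174 and 228 in MPP. It rose by 0.45 ± 0.13 over BFU-E (log2, adjusted p = 0.0207) and 0.61 ± 0.13 over MPP (adjusted p = 0.00166). The former did not pass without CFU-E library 1 or BFU-E library 2 or 3, with 0.32 (adjusted p = 0.142) without BFU-E library 3.

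The thymidylate enzymes next to Dut did not pass the test in any comparison. Thymidylate synthase Tyms was at 51.4 to 76.8 CPM in CFU-E, 56.0 to 67.2 in BFU-E and 49.8 to 67.9 in MPP. The thymidylate kinase Dtymk was at 74.6 to 81.1, 56.3 to 83.3 and 64.9 to 74.0 CPM in the same order, the deaminase Dctd at 32.3 to 51.3, 28.9 to 49.0 and 31.6 to 55.5, and the UMP and CMP kinase Cmpk1 at 63.9 to 78.9, 73.0 to 99.4 and 53.5 to 64.8. The salvage kinases Tk1 and Dck were at 32.7 to 44.4 and 41.3 to 53.2 CPM in CFU-E, and their ranges overlapped those of BFU-E and MPP.

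Of the nucleoside diphosphate kinases, which make triphosphates, Nme1 rose. It was at 132, 130.5 and 132 CPM in CFU-E, 96.8, 81.2 and 76.8 in BFU-E and 70.8, 103 and 92.5 in MPP, by 0.63 ± 0.15 over BFU-E (log2, adjusted p = 0.00473) and 0.57 ± 0.15 over MPP (adjusted p = 0.00768). The CFU-E libraries were nearly equal and above all others. Nme2 was at 32.8, 33.4 and 27.3 CPM in CFU-E, 28.7, 27.5 and 25.7 in BFU-E and 26.0, 33.9 and 21.8 in MPP, with overlap. These genes are close neighbours in sequence and position, so reads may have been split between them by the counting.

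Serine synthesis and salvage gave no call in the spleen comparisons. Psat1, the transaminase of serine synthesis, was at 125 to 178 CPM in CFU-E, 133 to 166 in BFU-E and 117 to 131 in MPP. Phgdh, its first enzyme, was at 16.8 to 25.7, 8.40 to 16.2 and 6.13 to 17.4 CPM, and Psph, its last, at 20.3 to 24.6, 18.9 to 20.5 and 16.0 to 22.7. Per length, Psat1 was at 38.9 ± 4.82 RPKM in spleen BFU-E and Phgdh at 3.88 ± 1.34. Of the synthetases of activated ribose phosphate, Prps1 was at 104, 86.3 and 90.1 CPM in CFU-E, 68.9, 77.5 and 72.8 in BFU-E and 75.9, 55.5 and 75.6 in MPP, and Prps2 at 78.0, 88.9 and 85.6 in CFU-E, 77.8, 96.2 and 72.2 in BFU-E and 78.1, 64.4 and 92.1 in MPP. CFU-E lay above both other groups for Prps1 and overlapped them for Prps2. The base salvage enzymes Hprt and Aprt were at 131 to 139 and 57.7 to 69.4 CPM in CFU-E, and Hprt, too, was higher in every CFU-E library than in any BFU-E library (103 to 115) without passing the test. Against MPP, 3 of these genes missed the threshold as fitted and passed it in some of 12 alternatives. Prps1 passed in 6, namely with library totals (adjusted p = 0.0246), DESeq2 (0.0335), no filter on low counts (0.0371), DESeq2's size factors (0.0493), and without MPP library 1 (0.0471) or 3 (0.0497). Hprt passed in 3, with library totals (adjusted p = 0.0224), DESeq2 (0.0289) and without MPP library 3 (0.0407). Psat1 also passed in 3, with library totals (adjusted p = 0.0371), no filter (0.0361) and without CFU-E library 3 (0.0149).

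**Figure D4:**
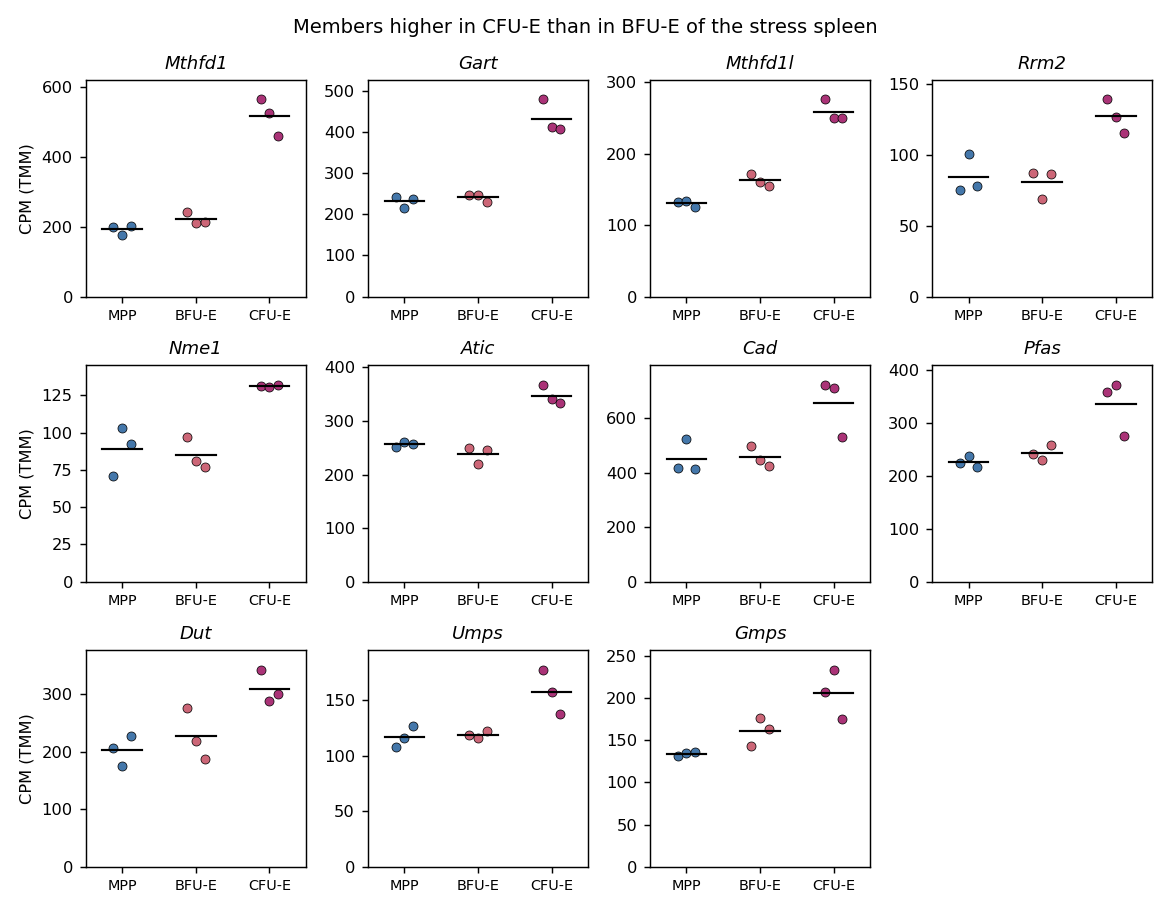
Level (CPM) of the 11 genes that rose from spleen BFU-E to CFU-E, in every library of the 3 spleen populations, with a bar at the mean of 3 and each axis from 0. Mthfd1 and Gart show the widest gaps to BFU-E and MPP, and Gmps is the gene whose CFU-E and BFU-E libraries overlap.

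In the spleen, other groups of genes moved between the same libraries. From BFU-E to CFU-E all 8 tested erythroid markers rose, all 8 megakaryocyte markers fell, and 6 of 8 tested myeloid markers fell. In CFU-E, the myeloid markers Fcgr3, Vcam1, C1qb, C1qc, Cd5l and Adgre1 were at 0 in all libraries. Most of these were not at 0 in CFU-E alone. Vcam1, C1qb and C1qa were at 0 in all spleen BFU-E libraries, and C1qb, C1qc, Cd5l, C1qa and Adgre1 in all MPP libraries. The part of these other cell types in the results above was not tested. Some genes of DNA replication rose too. From BFU-E to CFU-E they were 12 of 40 (9.17% of all genes rose), and the 40 had a median log2 fold change of 0.20 (-0.19 to 1.92). Between MPP and CFU-E they were 14 of 40 (12.7% of all genes), with a median of 0.32. None fell in either comparison. Ccne1, a cyclin that drives entry into S phase, went from 16.5 ± 3.52 to 62.3 ± 14.1 CPM from BFU-E to CFU-E, a rise of 1.92 ± 0.25 (log2, adjusted p = 8.21e-06). The flap endonuclease Fen1 went from 184 ± 21.4 to 258 ± 17.0 CPM, a rise of 0.49 ± 0.12 (adjusted p = 0.00473).

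Other genes of nucleotide and folate metabolism changed in both directions. Of 57 tested, 12 rose and 7 fell from BFU-E to CFU-E (9.17% and 11.9% of all genes), where the median log2 fold change was 0.32. Between MPP and CFU-E, 17 rose and 8 fell (12.7% and 16% of all genes). Slc29a1, the equilibrative nucleoside transporter, went from 18.3 ± 1.60 CPM in BFU-E to 69.2 ± 11.8 in CFU-E, a rise of 1.92 ± 0.23 (log2, adjusted p = 2.34e-06). Pnp, the purine nucleoside phosphorylase, went from 40.3 ± 3.20 to 97.2 ± 4.50 CPM, a rise of 1.27 ± 0.17 (adjusted p = 1.15e-05). Fpgs, which adds glutamates to folate and so keeps it in the cell, went from 34.4 ± 9.67 to 97.9 ± 14.4 CPM, a rise of 1.50 ± 0.21 (adjusted p = 1.53e-05). In the other direction, the AMP deaminase Ampd2 went from 148 ± 16.4 to 87.8 ± 4.54 CPM, with a log2 fold change of -0.75 ± 0.14 (adjusted p = 0.000318). The guanine deaminase Gda went from 22.5 ± 5.64 to 2.42 ± 1.68 CPM (-3.22 ± 0.59, adjusted p = 0.000388). Aldh1l1, which oxidises formyl folate, went from 20.1 ± 2.92 to 6.22 ± 3.06 CPM (-1.70 ± 0.37, adjusted p = 0.002). Against MPP, Pnp and Fpgs were again among the genes higher in CFU-E with the smallest adjusted p, together with the adenylate kinase Ak3 (0.94 ± 0.16, adjusted p = 0.000163). Lower against MPP were Aldh1l1 (-2.31 ± 0.38, adjusted p = 8.17e-05), Adssl1 (-2.07 ± 0.42, adjusted p = 0.000709) and Ampd2 (-0.64 ± 0.14, adjusted p = 0.00118).

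Phgdh, Psat1, Mthfd2 and other one-carbon genes are known targets of the transcription factor ATF4, so Atf4 and its other targets were set beside them. Of 7 tested, 1 rose from BFU-E to CFU-E: Aldh18a1, the first enzyme of proline synthesis, went from 148 ± 18.2 to 236 ± 18.5 CPM, by 0.67 ± 0.12 (log2, adjusted p = 0.000353). Between MPP and CFU-E, 3 of 7 rose: Aldh18a1, the amino acid transporter Slc7a5, and the asparagine synthetase Asns, which went from 21.4 ± 9.30 to 48.5 ± 15.1 CPM (adjusted p = 0.0044). None of the 7 was called between BFU-E and MPP.

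Between the BFU-E of the stress spleen and of BM, no gene of the 39 passed edgeR's test, and the values lay mostly higher in the spleen. In this comparison the tissue, the irradiation and transplantation, and the streptavidin fluorophore of the sort change together and cannot be told apart. The log2 fold change was above 0 for 29 of the 39 genes (50.7% of all genes tested) with a median of 0.51 (all genes 0.01). For 13 of the 39, every spleen library was higher than every BM library, against 12.8% of all genes, and for none was every spleen library lower, against 9.08% (21.9% in either direction). Without BM library 3, 33 were above 0 and the median was 0.32. DESeq2 called 685 genes in this comparison against edgeR's 12, and Cad, Psat1, Rrm1, Paics, Atic and Nme1 were among them.

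Psat1 had the largest log2 fold change of the 39. It was at 165, 169 and 135 CPM in the stress spleen libraries and at 64.8, 66.3 and 23.6 in the BM libraries, a difference of 1.60 ± 0.39 (log2, unadjusted p = 0.0036, adjusted p = 0.254 in edgeR, and 0.000853 in DESeq2). BM library 3 was the lowest, and the other BM libraries too were under every spleen library. The other serine genes did not share this pattern: Phgdh was at 16.4, 8.55 and 14.9 CPM in the spleen and 32.9, 20.3 and 0 in BM, and Psph at 20.4, 19.3 and 20.8 CPM in the spleen and 7.81, 10.4 and 28.1 in BM. In BM library 3, Phgdh was the only one of the 39 genes without a count.

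The 6 purine ring genes had a log2 fold change above 0, Adsl with a sign that changed between alternatives, and 4 of them were higher in the spleen without overlap. Atic was at 252, 223 and 249.8 CPM in the spleen and 157, 162 and 106 in BM, a log2 difference of 0.77 ± 0.21 (adjusted p = 0.291 in edgeR). Paics was at 218, 252 and 201 CPM in the spleen and 144, 153 and 125 in BM, a difference of 0.67 ± 0.18 (adjusted p = 0.285). Gart was at 249.8, 252 and 233 CPM in the spleen and 123, 211 and 134 in BM. Pfas was at 245, 235 and 262 CPM in the spleen and 126, 205 and 186 in BM. The differences of Gart and Pfas were 0.65 ± 0.23 and 0.52 ± 0.21 (adjusted p = 0.398 and 0.472). The RNA of Pfas and its start peak in the spleen list alone are separate assays on separate libraries, and neither difference has passed a test. Adsl and Ppat overlapped between the populations.

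Cad had the smallest p of the 39 genes. It was at 503, 455 and 434 CPM in the spleen and 283, 333 and 267 in BM, a log2 difference of 0.66 ± 0.15 (unadjusted p = 0.00255, adjusted p = 0.233 in edgeR, and 0.000203 in DESeq2). Rrm1 was at 434, 516 and 457 CPM in the spleen and 345, 246 and 229 in BM, a difference of 0.78 ± 0.19 (adjusted p = 0.255). The small subunit Rrm2 was at 88.3, 70.3 and 87.9 CPM in the spleen and 93.4, 74.6 and 85.6 in BM, with overlapping ranges. Rrm2b was at 10.6, 12.9 and 10.2 CPM in the spleen and 26.3, 3.88 and 26.5 in BM. Umps was at 120.2, 118 and 124 CPM in the spleen and 97.4, 58.0 and 31.1 in BM. The spleen libraries were nearly equal and the BM libraries far apart, and the difference of 0.96 ± 0.39 had an adjusted p of 0.484. Ctps was at 109, 103 and 106 CPM in the spleen and 89.5, 84.1 and 19.0 in BM, a difference of 0.72 ± 0.51 (adjusted p = 0.72) that was 0.29 without BM library 3. Ctps2 was at 51.7, 65.4 and 55.3 CPM in the spleen and 31.1, 54.7 and 92.1 in BM.

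Nme1 was at 98.0, 82.6 and 78.2 CPM in the spleen and 25.3, 58.3 and 19.8 in BM, a log2 difference of 1.32 ± 0.44 (adjusted p = 0.383 in edgeR). Nme2 was at 29.0, 28.0 and 26.1 CPM in the spleen and 2.39, 5.51 and 49.5 in BM, and BM library 3 was its highest library. Prps1 was at 69.8, 78.9 and 74.1 CPM in the spleen and 64.6, 28.7 and 26.2 in BM, a difference of 0.90 ± 0.41 (adjusted p = 0.526). Prps2 was at 78.8, 97.9 and 73.5 CPM in the spleen and 74.8, 72.3 and 118 in BM. Among the folate enzymes, Shmt1 was at 82.1, 74.2 and 77.5 CPM in the spleen and 51.4, 56.2 and 54.6 in BM. Mthfd1l was at 174, 164 and 158 CPM in the spleen and 107, 145 and 118 in BM. Neither gene overlapped between the populations, and the differences were 0.53 ± 0.25 and 0.42 ± 0.19 (adjusted p = 0.55 and 0.526). Mthfd1, the gene with the largest rise in CFU-E, was at 244, 215 and 219 CPM in the spleen and 212, 163 and 255 in BM and overlapped. Shmt2 was at 263, 217 and 209 CPM in the spleen and 144, 223 and 108 in BM. Mthfd2 was at 47.2, 41.6 and 46.9 CPM in the spleen and 46.1, 50.1 and 80.8 in BM. Impdh1 was at 62.9, 54.6 and 44.4 CPM in the spleen and 104, 31.8 and 152 in BM, and its partner Impdh2 at 24.3, 24.1 and 31.1 CPM in the spleen and 8.35, 8.01 and 24.6 in BM. For Mthfd1, Mthfd2, Prps2, Impdh1 and Nme2, BM library 3 was higher than every spleen library. The same held for Ctps2, Cmpk1, Rrm2b, Tk1, Adsl, Aprt and Psph.

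**Figure D5:**
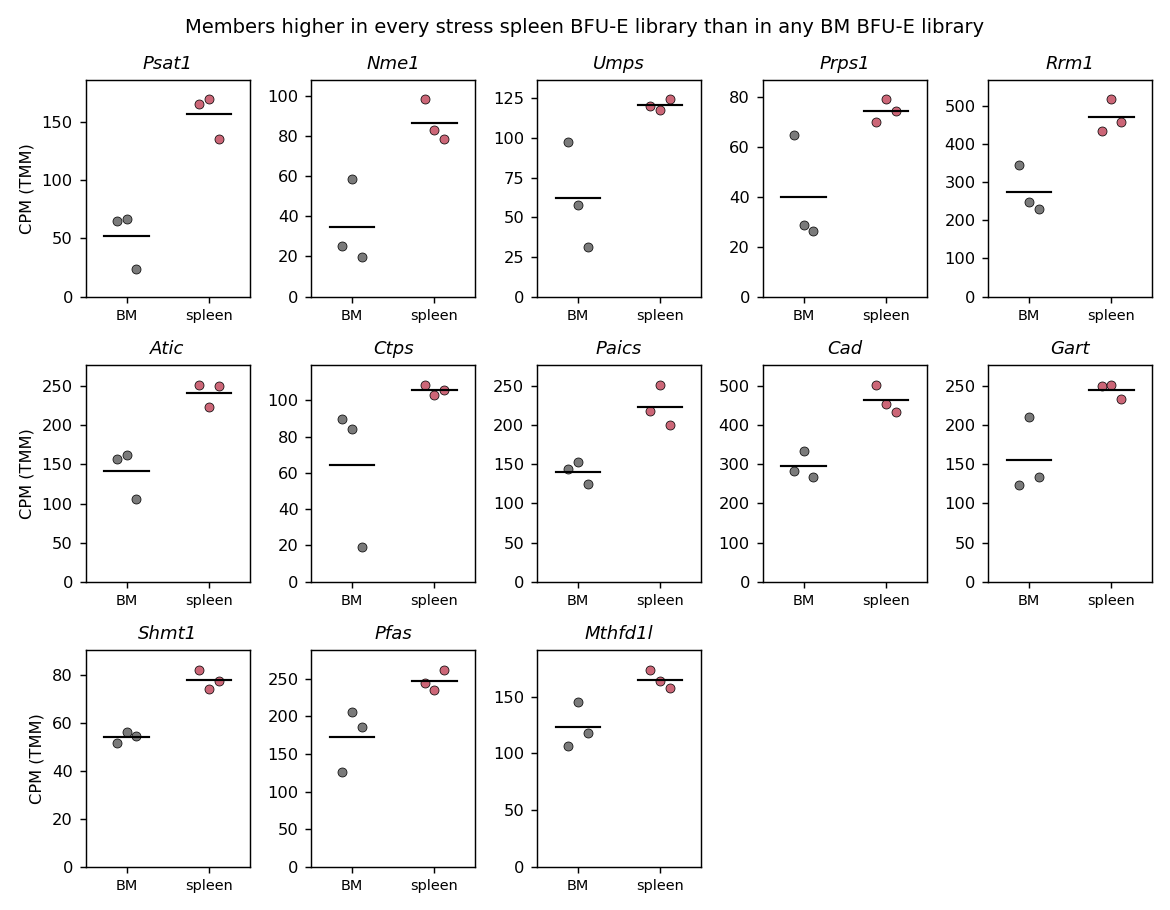
Level (CPM) in every library of BM BFU-E (grey) and stress spleen BFU-E (red) for the 13 genes whose groups do not overlap, with a bar at the mean of 3 and each axis from 0. All 13 are higher in the spleen, the BM points are the more spread in most panels, and none passed edgeR's test.

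Beside these values, the summed level of the 13 myeloid markers in the BFU-E table was 1027 to 2335 CPM in BM and 721.6 to 860.8 in the spleen, all 13 had a log2 fold change below 0, and 2 fell. The erythroid markers summed to 422.5 to 612 CPM in BM and 652.8 to 722.3 in the spleen, and the megakaryocyte markers to 2075 to 3104 and 1811 to 2089. Their part in the differences of the nucleotide genes was not tested. Of the 40 DNA replication genes, 28 had a log2 fold change above 0, with a median of 0.28, and edgeR called none, with an unadjusted p under 0.05 for 1 higher and 1 lower. None of 62 other genes of nucleotide and folate metabolism was called by edgeR (2 higher and 3 lower with an unadjusted p under 0.05), nor any of 8 of the ATF4 list (1 higher and 1 lower).

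Between BFU-E and MPP of the spleen, none of the 39 genes passed the test. All 5 folate one-carbon enzymes had a log2 fold change above 0 (median 0.28). Of them, 4 were higher in every BFU-E library than in any MPP library (10.5% of all genes), and Shmt1 overlapped. Of the groups by pathway step, this one had the most genes without overlap, and no test of it as a group was made. An unadjusted p under 0.05 in edgeR was reached by 2 of the 5, both higher in BFU-E (7.59% of all genes were). Over the whole list, the log2 fold change was above 0 for 28 of the 39 genes (49.8% of all genes tested), with a median of 0.08. For 8 genes every BFU-E library was higher than every MPP library (10.5% of all genes) and for Atic every one was lower (10.8%, and 21.4% in either direction). The 6 genes with an unadjusted p under 0.05 were Cmpk1, Mthfd1l, Paics, Gmps, Shmt2 and Psat1. With library totals in place of composition factors, Cmpk1 and Mthfd1l passed the test (log2 fold change 0.61 and 0.43, adjusted p = 0.0404 and 0.0359), but that scaling also moved the median of all genes to 0.11. Of 40 DNA replication genes, 2 rose from MPP to BFU-E (2.03% of all genes did), Mcm6 (0.28 ± 0.07, adjusted p = 0.0365) and Pola1 (0.37 ± 0.10, adjusted p = 0.0468). Markers of other cell types moved between these groups as well. From MPP to BFU-E, 5 of 8 tested erythroid markers rose and 1 fell, 6 of 9 stem and multipotent progenitor markers fell, 3 of 8 megakaryocyte markers rose and 2 of 8 tested myeloid markers rose, the last with a median log2 fold change of 1.98. The myeloid markers summed to 123 to 472.7 CPM in MPP and 709.2 to 847.5 in BFU-E, and the megakaryocyte markers to 1017 to 1187 and 1780 to 2053. Their part in the differences between BFU-E and MPP was not tested.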

How the data were processed

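RNA-seq counts of 12 libraries and ATAC-seq peak lists of both BFU-E populations were used. The aligners named in the submitters' processing notes are Bowtie2 2.3.4.2 and STAR 2.6.0b-1. The same notes name DESeq2, HOMER 4.8 and the build mm10 (GRCm38), and assign no step to any of them. The deposited count tables hold raw exon counts per gene (1 transcript each, by HOMER, per the file headers). The BFU-E table keeps genes with a mean of at least 50 counts in at least 1 group. The authors' RPKM tables scale reads by gene length and library size. The RPKM table of all libraries and that of both BFU-E populations differ for BM (r 0.867 over genes) and not for spleen BFU-E (1.0), and for the 39 genes the BM values of log2(RPKM + 1) are higher in the former by a median of 1.59 (-1.87 to 3.66). Which of them is right for BM is not known, so levels per length are compared here only within the spleen populations, and any BM value is from the latter, in which 1 BM column carries an incomplete library name and was used by group only. The deposited peak lists give a score of 415 to 1000 per merged peak. The peak caller and the threshold of the irreproducible discovery rate are not given in the sources used here. Repeated entries for 1 interval were merged.

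The 2 BFU-E groups were fitted in edgeR 4.0.16 (R 4.3.3, TMM), and the 3 spleen groups together over 10166 genes with a mean of at least 50 counts. The standard error is the log2 fold change over the square root of F, an approximation. The fits were also run on simulated counts, drawn with 1 spread per gene shared by all groups. That setting lacks the wider spread of the BM libraries, so it cannot decide between edgeR and DESeq2 there. Peaks were compared with bedtools 2.31.1, an overlap of 1 base counting as shared. DESeq2 1.42.0 (Wald test, local dispersion trend), other scalings and filters, leaving out each library and a replicate block were the alternatives. A DESeq2 fit with a mean dispersion trend and the peak count with any gene name were added after seeing the data. Promoters of Ppat and Paics, which lie in each other's transcripts, are not printed, and Dhodh, Rrm2b and Pfas had no window in the RefSeq table. The 39 genes and the other lists were chosen with earlier results of these data known. All 39 are named, with values in every library for those called in any comparison and for paralogue pairs; other pathway genes are named for the smallest adjusted p. The genes without overlap between the BFU-E populations were chosen for full values after they were seen.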

Additional observations from a re-analysis of the deposited data

How the results depend on the processing

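No gene that had a call, or whose BFU-E groups did not overlap, changed direction under the alternatives run in its comparison. These genes were picked by their calls or lack of overlap in these same data, so their steady direction is no independent check. Leaving out 1 library can hardly reverse groups that do not overlap. Of the other members, 8 of 26 changed sign under at least 1 alternative between the BFU-E populations, 15 of 37 between BFU-E and MPP, 11 of 27 between CFU-E and BFU-E, and 8 of 17 between CFU-E and MPP. Between CFU-E and BFU-E, 8 of the 11 called genes were called in all 12 settings (Atic, Cad, Gart, Mthfd1, Mthfd1l, Nme1, Pfas and Rrm2), and between CFU-E and MPP 10 of 17, those 8 with Dut and Gmps. The choice of test mattered most between the BFU-E populations: DESeq2 called 685 genes over the table, 264 higher and 421 lower, and 6 of the 39 higher, and with a mean dispersion trend 579 and 5 (Cad, Shmt1, Paics, Psat1 and Atic), against 12 and 0 in edgeR; the cause was not tested. Leaving out 1 library gave 0 to 27 calls over that table, with 27 without BM library 3, and 0 of the 39.

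Between BFU-E and MPP, library totals gave 2 of the 39 higher and split all calls into 364 higher and 162 lower (206 and 214 with composition factors), DESeq2 gave 1 (Mthfd1l), no filter on low counts gave 668 calls over the table, and leaving out 1 library gave 225 to 336. Leaving out 1 library gave 8 to 11 of the 39 higher and 0 to 1 lower between CFU-E and BFU-E, and 10 to 17 higher and 0 to 1 lower between CFU-E and MPP, with 10 without CFU-E library 1 and Ctps2 lower without CFU-E library 3. All settings together gave 10 to 21 higher in the latter, and 12 with only those groups in the fit, without Dhodh, Rrm1, Adsl, Impdh2 and Mthfd2. Library totals ended the calls of Umps and Gmps between CFU-E and BFU-E (adjusted p = 0.055 and 0.0984).

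Genes with a promoter peak by the authors' class were 13 in BM, 17 in spleen and 13 in both; by the authors' distance of 1 kb they were 33, 37 and 33, and with any gene name 36, 38 and 36. A score of at least 540 or a reciprocal overlap of 50% left 13, 17 and 13.

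The labels do not say that a replicate number marks a shared animal or batch. Deviations of same-numbered libraries had r -0.036 to -0.03 between the BFU-E populations. In the spleen they had r 0.015 to 0.116, positive in each pair, against -0.09 to 0.03 for differently numbered pairs. These values do not settle whether the spleen numbers mark a pairing. The main fits took none, and a replicate block was run as an alternative. Spleen BFU-E library 2 correlated better with CFU-E library 3 (0.03) than with library 2 (0.02). With a replicate block, edgeR called 3 genes between the BFU-E populations and 0 of the 39, and 16 of the 39 between CFU-E and MPP, without Mthfd2 (adjusted p = 0.0525). Spread limits the BM comparison: Nme2 ranged from 2.39 to 49.5 CPM over its libraries.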
